A study of Homo sapiens with 6 samples.

Results

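Respiratory complex I is described here through its genes in both genomes, the nuclear one and the mitochondrial one. Genes were taken by symbol from the deposited count table. They were the nuclear genes whose symbol starts with NDUF and the mitochondrially encoded ND1, ND2, ND3, ND4, ND4L, ND5 and ND6, with at least 10 counts in at least 2 of the 6 libraries. Of 55 symbols that matched, the read-through name NDUFC2-KCTD14 was left out. This left 54 of the 19672 genes in the table, 47 nuclear and 7 mitochondrially encoded. The low-count minimum was the only measured value in this rule, but the set was chosen with earlier results of these data known. All 54 genes entered the test, which ran on 13299 genes.

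Messenger RNA was sequenced from SW620, a human colorectal cancer cell line established from a lymph node metastasis. Both knockdown lines, called C3 and C6, carried a lentiviral short hairpin RNA against DKC1. The control line, called scramble, carried a non-targeting hairpin in the same kind of vector. Each group had 2 libraries, all lines were kept in puromycin, and no further treatment is named. A pair of hairpins against DKC1 was used, but the sources used here do not say which one each line carries or whether a line is a clone. Titles speak of biological replicates and do not say that these were separate cultures, so p-values measure the spread between these libraries.

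Library totals ran from 26077966 to 31021000 counts, and 3 counts corresponded to 0.0968 to 0.114 CPM (counts per 1000000 of the TMM-scaled library size), a floor for counting error only. Replicate libraries differed beyond sampling noise: the chi-square over its degrees of freedom was 6.02 in C3, 8.16 in C6 and 7.51 in scramble. DKC1, which encodes the pseudouridine synthase dyskerin, had 144 and 149 CPM in C3 and 70.3 and 67.1 CPM in C6, against 320 and 315 CPM in scramble. Its log2 fold change was −1.11 ± 0.06 (SE) in C3 and −2.21 ± 0.06 in C6 (adjusted p of 4.3e-09 and 3.5e-12, quasi-likelihood test of edgeR, Benjamini-Hochberg adjusted over all genes tested). The genotype tag of the first C3 library reads control, and the library was kept in C3 by its title. Of 12 markers of colorectal epithelium 11 were detected, with summed levels of 6890 and 7086 CPM in C3 and 9068 and 8962 CPM in C6, against 9140 and 8494 CPM in scramble. KRT8, KRT18, KRT19, EPCAM and VIL1 were high (136 CPM or more in every library). The intestinal markers KRT20, CDX2 and CDH17 were low, with at most 4.06, 4.9 and 5.54 CPM. CDX1 was at 0, and LGALS4 and GPA33 reached at most 0.52 and 0.854 CPM. CDH1 had 60.3 and 55.9 CPM in C3 and 175 and 190 CPM in C6, against 220 and 230 CPM in scramble. Of 11 markers of blood cells, fibroblasts and endothelium, PTPRC, CD3E, COL3A1, DCN and CDH5 were at 0. Among the other 6, CD68 had 10.5 and 10.8 CPM in C3 and 33.0 and 40.0 CPM in C6, against 16.8 and 15.2 CPM in scramble, and the rest reached at most 5.36 CPM. The part of these marker differences in the results below was not tested. In bulk RNA, fewer cells that express a gene and less of its RNA per cell cannot be told apart.

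Complex I is the entry point of electrons into the mitochondrial respiratory chain: it takes them from NADH, passes them to ubiquinone and pumps protons across the inner membrane. Its core of 14 subunits is shared with bacteria. Of these, 7 are made from mitochondrial DNA and the others, with all accessory subunits, from nuclear genes. The subunits form an N module that binds NADH, a Q module that reduces ubiquinone and a membrane-embedded P module that pumps protons. NDUFAF proteins help to put the complex together and are not part of the finished enzyme.

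In C3, 31 of the 54 genes rose and none, 0, fell, against 12.4% of all genes tested that rose and 11.9% that fell. In C6, 20 rose and 4 fell, against 23.8% and 22.8% of all genes. In either direction, 31 genes were called in C3 and 24 in C6, 57.4% and 44.4% of the 54, against 24.3% and 46.7% of all genes, so the share called in C6 was near that of all genes. Averaged over the lines, 26 rose and 2 fell (16.6% and 16.3% of all genes, 32.9% together). The log2 fold change was above 0 in 51 genes in C3 and in 40 in C6, against 50.3% and 49.0% of all genes. The median log2 fold change of the 47 nuclear genes was 0.28 in C3 and 0.18 in C6, where the median of all genes tested was 0.0 in C3 and −0.01 in C6. For the 7 mitochondrially encoded genes the medians were 0.20 and 0.11. Most changes were small: the log2 fold change of a complex I gene ranged from −0.19 to 0.82 in C3 and from −0.47 to 1.08 in C6.

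**Figure D1:**
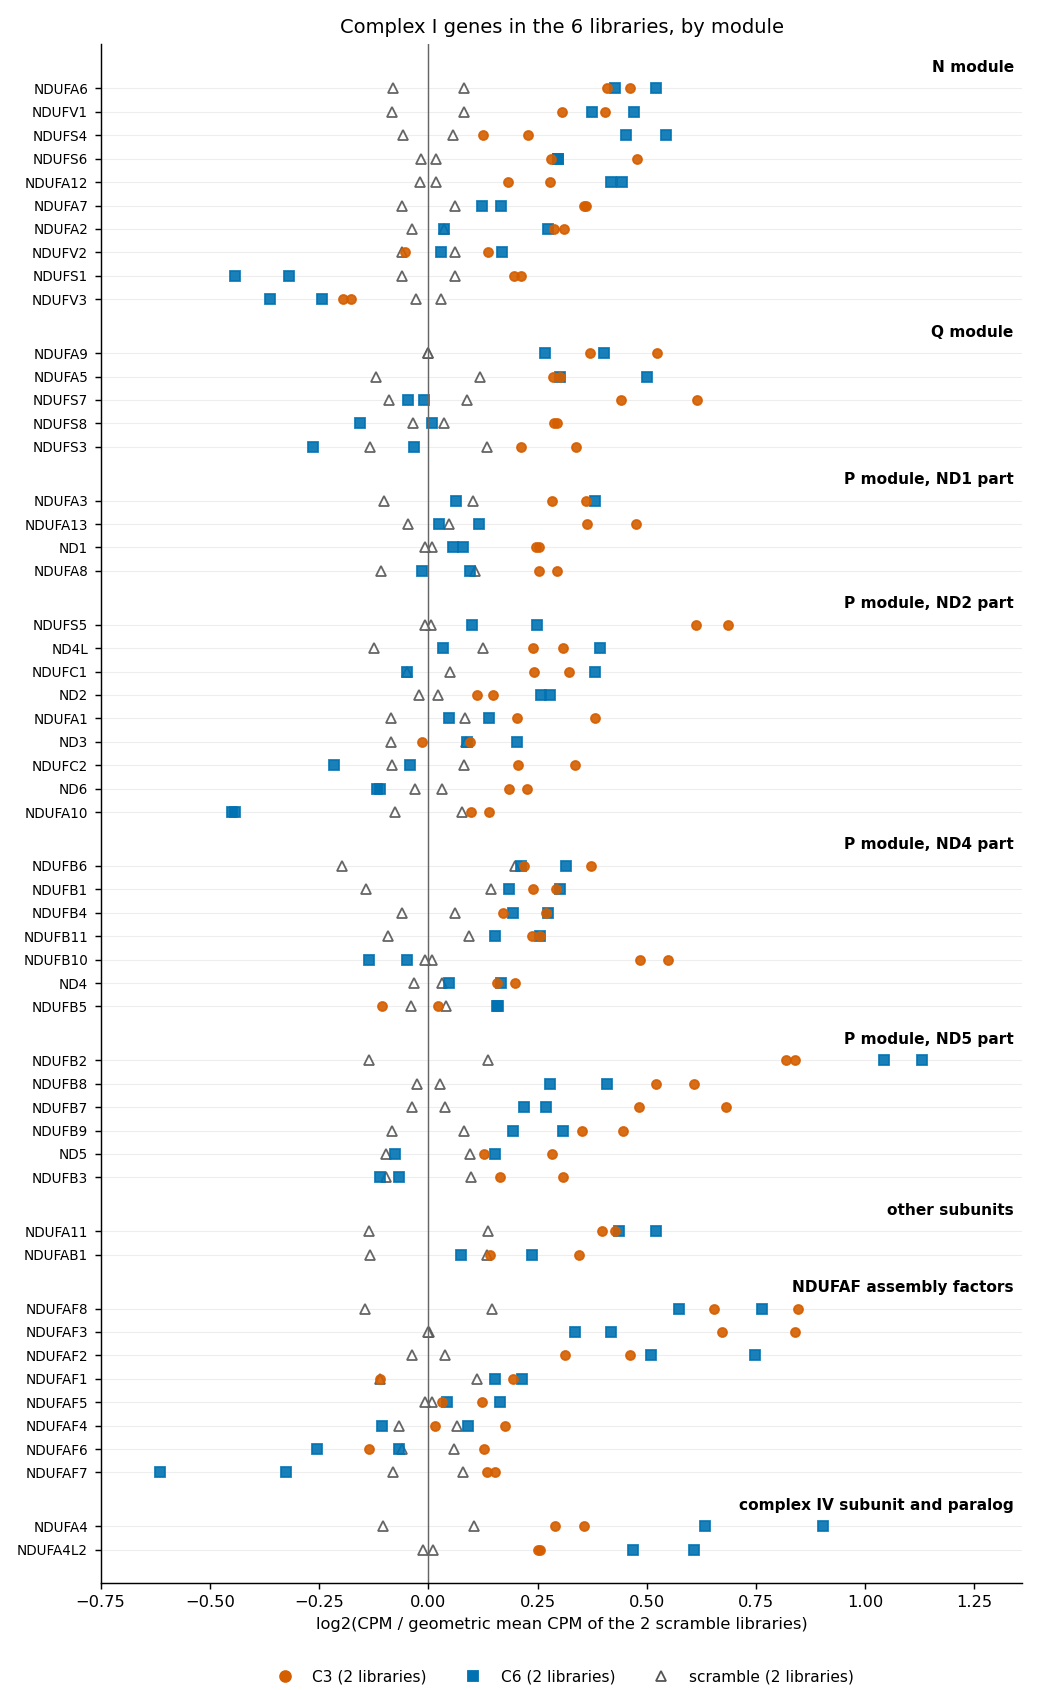
Each row is 1 gene, with 53 of the 54 drawn, and each symbol 1 library; the x axis gives log2 of its CPM over the geometric mean of both scramble libraries. In 28 of the 54 genes all 4 knockdown libraries lay above both scramble libraries, as did 15.0% of all genes tested, and in 1, NDUFV3, all 4 lay below (15.2%).

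Summed over the 47 nuclear genes, the level was 2623 and 2760 CPM in C3 and 2490 and 2323 CPM in C6, against 2265 and 2100 CPM in scramble. The sums of the 4 knockdown libraries lay above those of both scramble libraries. Both C3 libraries lay above both scramble libraries in 47 of the 54 genes (31.8% of all genes tested), and both C6 libraries in 31 of them (36.1%). Both lay below in 1 gene in C3 (31.1%) and in 7 in C6 (36.8%). The scramble libraries themselves differed: the first exceeded the second in 42 of the 47 nuclear genes, by a median of 0.12 on the log2 scale. The first C6 library exceeded the second in 38 (median 0.108), and the second C3 library exceeded the first in 34 (median difference, first minus second, −0.076). Over all genes tested these medians were between −0.003 and 0.006, and the part of this replicate difference in the calls was not tested. With a library of a line or of scramble left out, the share of all genes that rose in that line dropped as well. How many calls of all genes held is not given. The counts of held calls here and below therefore do not set these genes apart from other called genes. Without the second scramble library, the lower of the pair, 17 genes rose in C3 and 12 in C6. Without the first or the second C3 library, 20 and 15 rose in C3. With each of the 6 libraries left out in turn, 13 of the 31 rises in C3 held every time, those of ND1, NDUFA6, NDUFA9, NDUFA13, NDUFB2, NDUFB7, NDUFB8, NDUFB9, NDUFB10, NDUFS5, NDUFS7, NDUFAF3 and NDUFAF8. In C6, 12 of the 20 rises held, those of ND2, NDUFA4, NDUFA6, NDUFA9, NDUFA11, NDUFA12, NDUFB2, NDUFB8, NDUFS4, NDUFV1, NDUFAF2 and NDUFAF8. Of the 4 falls in C6, those of NDUFA10, NDUFS1 and NDUFAF7 held and that of NDUFV3 did not.

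Both lines shared 17 genes that rose, against 5.44% of all genes tested. The lines were compared with the same scramble libraries, so their calls are not independent. The 17 were NDUFB2, NDUFB8, NDUFA4, NDUFA6, NDUFV1, NDUFAF2, NDUFA9, NDUFA11, NDUFAF8, NDUFB7, NDUFB9, NDUFAF3, NDUFA12, NDUFS6, NDUFA5, NDUFB11 and NDUFB4, all of them nuclear. No gene, 0, fell in both lines, against 4.59% of all genes. NDUFS1 was called with opposite signs, as were 4.93% of all genes. The shared count was 6 without the second scramble library and 10 without the second C3 library. NDUFA6, NDUFA9, NDUFB2, NDUFB8 and NDUFAF8, 5 of the 17, were called in both lines whichever library was left out. With any library left out, the share of all genes that rose in both lines was lower as well. The shared count was 11 with upper-quartile scaling and 11 with DESeq2 (20.4% in each, against 4.17% and 4.4% of all genes).

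**Figure D2:**
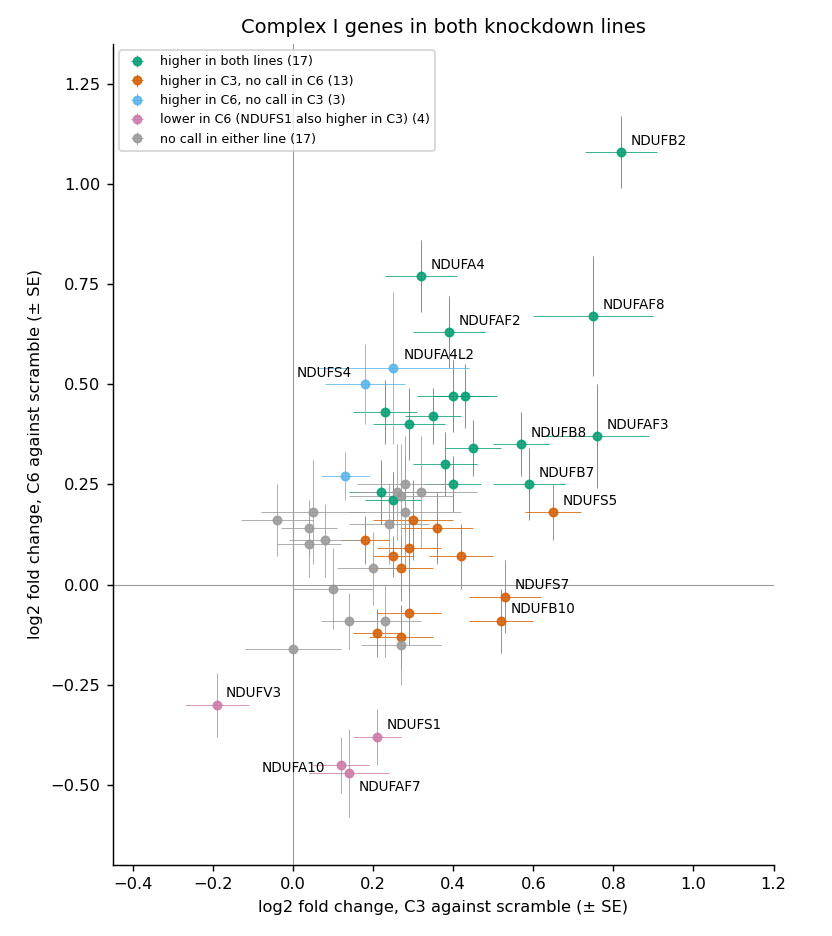
Log2 fold change against scramble in C3 (x axis) and in C6 (y axis) for the 54 genes, with standard errors and colours for the calls at an adjusted p under 0.05. The 17 genes higher in both lines lie to the upper right with NDUFB2 farthest out at 0.82 and 1.08, 13 genes rose in C3 without a call in C6, and the 4 that fell in C6 lie at the bottom.

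The start regions of these genes were searched for motifs of factors known to regulate respiratory genes. RefSeq windows of GRCh38.p14, from 250 bases before to 50 bases after the gene start, were at hand for 39 of the 47 nuclear genes; NDUFA4, NDUFB5, NDUFB9, NDUFC2, NDUFS5, NDUFA4L2 and NDUFAF6 were among those without one. Both strands were read for each motif, and no 2 motifs searched contain each other. The motif of YY1, a zinc finger factor, was searched as AAGATGGCG and stood in 7 windows (17.9%), against 2.14% of the windows of 27305 genes. Its letters include ATG, and whether this is the start codon of each gene was not examined. The palindromic motif of NRF1 stood in 3 windows (7.69%, against 1.52% of the 27305). The ETS motif CCGGAAG, which GABPA can bind, stood in 7 (17.9%, against 12.2%). The cyclic AMP response element TGACGTCA, looked for after the sequences had been seen, stood in those of NDUFB2 and NDUFA10 (5.13%, against 2.25%). The 27305 genes outnumber the 13299 tested, so they include genes not tested here, while all complex I genes were tested. These shares therefore compare unlike sets of genes.

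Shown are the 30 bases around each YY1 motif, on the gene's own strand with the motif in capitals. They were chosen because NDUFA6, NDUFA9, NDUFB8 and NDUFAF8 among these 7 genes rose in both lines.
NDUFA6: atgctttggcAAGATGGCGgggagcggcgt
NDUFA7: tcgcggacggAAGATGGCGtccgccacccg
NDUFA9: attgtgggaaAAGATGGCGgctgccgcaca
NDUFB8: gaagaaggtgAAGATGGCGgtggccagggc
NDUFS4: tgcctgcagcAAGATGGCGgcggtgtcaat
NDUFAF8: ggacggacctAAGATGGCGgcctccagggg
NDUFS7: ggccgaggccAAGATGGCGgtgctgtcagg
They lie at chr22:42090728-42090757 (minus strand), chr19:8321342-8321371 (minus), chr12:4649114-4649143 (plus), chr10:100529835-100529864 (minus), chr5:53560650-53560679 (plus), chr17:81239317-81239346 (plus) and chr19:1383914-1383943 (plus), in the same order. In each the motif began 11 to 26 bases into the gene, counting its first base as 1. Of these 7 genes, 6 rose in C3 and 5 in C6, with median log2 fold changes of 0.45 and 0.35. Of all genes tested, 12.4% rose in C3 and 23.8% in C6. With the shift of its chromosomal neighbours removed, NDUFS4 stood at 0.02 in C6 without a call. The motif was shown because of such calls, so they add no separate support. Of the 32 genes with a window but no such motif, 18 rose in C3, and 11 rose and 4 fell in C6, with medians of 0.28 and 0.17. The 7 genes with the ETS motif had medians of 0.29 in C3 and 0.07 in C6, against 0.29 and 0.22 for those without it. The 3 with the NRF1 motif had 0.22 and 0.11, against 0.29 and 0.20 for those without it, so neither set stood higher. This is a description of few genes, with no test.

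The 2 cyclic AMP response elements are shown likewise, since they stand before the gene with the largest rise in both lines and before a gene that fell in C6.
NDUFB2: gagcgactctgTGACGTCAcgggaggcgcg
NDUFA10: caccccggccgTGACGTCAcggcagcgcgc
They lie at chr7:140696644-140696673 (plus strand) and chr2:240025372-240025401 (minus strand), and the motif began 53 bases before the start of NDUFB2 and 48 bases before that of NDUFA10. NDUFB2 rose in both lines and NDUFA10 fell in C6, so these windows share the letters and the genes did not move alike.

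In the N module, 7 of 10 genes rose in C3 (against 12.4% of all genes tested). In C6, 5 of the 10 rose and 2 fell (against 23.8% and 22.8%), so the share that fell was near that of all genes. NDUFV1 (chromosome 11, 67606936 to 67612554), the core subunit that binds NADH and the flavin, had 140 and 150 CPM in C3 and 157 and 147 CPM in C6, against 120 and 107 CPM in scramble. All 4 knockdown libraries lay above both scramble libraries, and NDUFV1 rose by 0.35 ± 0.07 (log2, SE) in C3 and by 0.42 ± 0.07 in C6. NDUFA6 (chromosome 22, 42085526 to 42090772), an accessory subunit at the foot of the module, had 46.9 and 48.7 CPM in C3 and 50.7 and 47.5 CPM in C6, against 33.4 and 37.4 CPM in scramble. It rose by 0.43 ± 0.08 in C3 and 0.47 ± 0.08 in C6, and the lines overlapped each other. NDUFA12 (chromosome 12, 94971333 to 95003697), the accessory subunit that takes the place of the assembly factor NDUFAF2, had 40.2 and 43.0 CPM in C3 and 47.4 and 48.2 CPM in C6, against 35.9 and 35 CPM in scramble. The 3 groups did not overlap, and its rise was 0.23 ± 0.08 in C3 and 0.43 ± 0.08 in C6. The C3 call of NDUFA12 was lost under 9 of 15 alternatives and the C6 call under none, 0.

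NDUFS1 (chromosome 2, 206114817 to 206159444), the core subunit with most of the iron-sulfur clusters of the module, moved in opposite directions. It had 192 and 190 CPM in C3 and 122 and 133 CPM in C6, against 159 and 173 CPM in scramble. The groups did not overlap: NDUFS1 rose by 0.21 ± 0.06 in C3 (adjusted p = 0.0298) and fell by 0.38 in C6 (adjusted p = 0.00025). The 50 genes around NDUFS1 on the chromosome had a median log2 fold change of −0.50 in C6, and the value for NDUFS1 was 0.11 with no call once that shift was removed. NDUFV3 (chromosome 21, 42893309 to 42913299), an accessory subunit next to NDUFV1, was the lone gene with all knockdown libraries low. It had 36.7 and 37.2 CPM in C3 and 35.5 and 32.7 CPM in C6, against 42.9 and 41.2 CPM in scramble. Its log2 fold change of −0.30 ± 0.08 in C6 passed the test (adjusted p = 0.00702) and that of −0.19 ± 0.08 in C3 did not (adjusted p = 0.111).

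NDUFS4 (chromosome 5, 53560639 to 53683338), an accessory subunit known from inherited complex I deficiency, had 19.3 and 20.7 CPM in C3 and 25.8 and 24.2 CPM in C6, against 18.4 and 17.0 CPM in scramble. Its rise of 0.50 ± 0.10 in C6 passed the test and its value of 0.18 ± 0.10 in C3 did not. Its neighbours in C6 had a median of 0.48, and without that shift NDUFS4 stood at 0.02. NDUFS6, a zinc-binding accessory subunit, rose in both lines (0.38 and 0.30), but with the shift of its neighbours removed (median 0.38) it stood at −0.08 in C6. NDUFA2 and NDUFA7, accessory subunits, rose in C3 alone by the test (0.30 and 0.36). NDUFV2, an iron-sulfur core subunit, was called in neither line (0.04 in C3, 0.10 in C6).

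In the Q module, 4 of 6 genes rose in C3 (66.7%, against 12.4% of all genes tested) and 2 in C6 (33.3%, against 23.8%). Its median log2 fold change was 0.29 in C3 and −0.05 in C6. The core subunit NDUFS7 (chromosome 19, 1383907 to 1395584) holds the last iron-sulfur cluster before ubiquinone. It had 58.1 and 65.5 CPM in C3 and 41.4 and 42.5 CPM in C6, against 45.5 and 40.2 CPM in scramble. Both C3 libraries were high and the C6 libraries lay within the range of scramble, with a log2 fold change of 0.53 ± 0.09 in C3 and −0.03 ± 0.09 in C6. C6 lay below C3 by −0.56 ± 0.09 on the log2 scale (adjusted p = 6.4e-05). The neighbours of NDUFS7 on the chromosome had a median of −0.24 in C6. With their shift removed, the difference between the lines was −0.26 and still called, and C6 stood at 0.20 against scramble without a call. NDUFS3 and NDUFS8, also core subunits of the module, lay lower in C6 than in C3 as well, by −0.42 and −0.36. Of these, NDUFS8 rose in C3 (0.29), while NDUFS3 had a value of 0.27 without a call.

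NDUFA9 (chromosome 12, 4649114 to 4694317), the accessory subunit at the joint of the Q module and the membrane arm, had 99.7 and 111 CPM in C3 and 102 and 92.9 CPM in C6, against 77.2 and 77.2 CPM in scramble. It rose by 0.45 ± 0.07 in C3 and 0.34 ± 0.07 in C6, with the lines overlapping each other and both clear of scramble. NDUFA5, another accessory subunit, rose by 0.29 ± 0.09 and 0.40 ± 0.09. The neighbours of NDUFA5 had a median of 0.36 in C6, and nothing of its C6 value was left without them (0.0). These accessory subunits rose in both lines, while NDUFS3, NDUFS7 and NDUFS8 did not pass the test in C6.

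In the P module, 12 of 19 nuclear genes rose in C3 (63.2%, against 12.4% of all genes tested). In C6, 6 rose and 1 fell (31.6% and 5.26%, against 23.8% and 22.8%). The part next to ND5 had the largest changes. NDUFB2 (chromosome 7, 140696708 to 140706643), an accessory subunit there, had 51.9 and 51.2 CPM in C3 and 63.5 and 59.8 CPM in C6, against 31.9 and 26.4 CPM in scramble. The groups were well apart, and NDUFB2 rose 1.77-fold in C3 (log2 0.82 ± 0.09, adjusted p = 9.5e-06) and 2.11-fold in C6 (1.08 ± 0.09, adjusted p = 1.7e-07). Genes around it were high as well, with a median of 0.33 in C3 and 0.59 in C6. With this shift removed NDUFB2 still passed the test, at 0.49 in C3 and 0.47 in C6, and its difference between the lines, 0.26 ± 0.09, became −0.01 with no call.

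NDUFB8 (chromosome 10, 100523729 to 100529923), an accessory subunit often used as a readout of assembled complex I, had 73.1 and 77.7 CPM in C3 and 67.6 and 61.8 CPM in C6, against 51.9 and 50 CPM in scramble. It rose by 0.57 ± 0.07 in C3 and 0.35 ± 0.08 in C6, and the 3 groups did not overlap. NDUFB7 (chromosome 19, 14566078 to 14572066), a subunit on the side of the intermembrane space, had 40.4 and 46.4 CPM in C3 and 33.7 and 34.9 CPM in C6, against 29.7 and 28.2 CPM in scramble. C3 was highest and scramble lowest without overlap, with a rise of 0.59 ± 0.09 in C3 and 0.25 ± 0.09 in C6 (adjusted p of 0.0002 and 0.0363). The C6 call of NDUFB7 was lost under 8 of 15 alternatives, among them the removal of the shift of its neighbours (0.11). NDUFB9 (chromosome 8, 124539123 to 124549979), an accessory subunit of the LYR protein family, had 135 and 144 CPM in C3 and 131 and 121 CPM in C6, against 112 and 99.9 CPM in scramble. It rose by 0.40 ± 0.07 and 0.25 ± 0.07. NDUFB3 was called in neither line (0.23 ± 0.09 in C3, −0.09 ± 0.09 in C6); its neighbours stood at −0.48 in C6, and with that removed it was called higher there at 0.38.

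In the part next to ND4, NDUFB10 (chromosome 16, 1959538 to 1961975), a subunit facing the intermembrane space, had 49.5 and 51.8 CPM in C3 and 34.2 and 32.2 CPM in C6, against 35.6 and 35.2 CPM in scramble. C3 was far above the other groups: it rose by 0.52 ± 0.08 in C3, was not called in C6 (−0.09 ± 0.08), and the lines differed by −0.61 ± 0.08 (C6 minus C3, adjusted p = 1.3e-05). NDUFB4 and NDUFB11, accessory subunits, passed the test in both lines by 0.21 to 0.25. All of these calls were lost with the coding-length trend removed (NDUFB4 0.15 and 0.07, NDUFB11 0.19 and 0.07 in C3 and C6), and that of NDUFB11 in C6 also with the neighbour shift removed (0.15). NDUFB11 overlaps RBM10 on the chromosome, and RBM10 was called higher too, at 0.27 in C3 and 0.19 in C6; the sources used here do not say how reads of overlapping genes were divided. NDUFB1, NDUFB5 and NDUFB6 were called in neither line, with values between −0.04 and 0.28.

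In the part next to ND2, NDUFS5 (chromosome 1, 39026350 to 39034615), a subunit on the outer face of the inner membrane, had 82.3 and 86.7 CPM in C3 and 64.0 and 57.7 CPM in C6, against 54.1 and 53.6 CPM in scramble. Its rise of 0.65 ± 0.07 in C3 was the largest in that line of a gene not called in C6, where both libraries still lay above scramble with 0.18 ± 0.07 (adjusted p = 0.0664). NDUFA10 (chromosome 2, 239892442 to 240025342), a subunit with the fold of a nucleoside kinase, had 140 and 144 CPM in C3 and 96.2 and 95.8 CPM in C6, against 138 and 124 CPM in scramble. It fell by 0.45 in C6 (adjusted p = 6.6e-05) and was not called in C3 (0.12 ± 0.07). Like NDUFS1 it lies on chromosome 2 among genes that were low in C6, with a neighbour median of −0.36, and without that shift it stood at −0.09. NDUFA1 and NDUFC2 rose in C3 by 0.29 and 0.27 and were not called in C6, while NDUFC1 was called in neither line. In the part next to ND1, NDUFA13, also known as GRIM-19, rose by 0.42 and NDUFA8 by 0.27 in C3; both were lower in C6 than in C3, by −0.35 and −0.23. NDUFA3 was called in neither line.

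Of the 2 subunits outside these modules, NDUFA11 (chromosome 19, 5891229 to 5903790), which sits where the membrane arm meets complex III in supercomplexes, had 65.8 and 67.2 CPM in C3 and 71.7 and 67.6 CPM in C6, against 54.9 and 45.5 CPM in scramble. It rose by 0.40 ± 0.09 in C3 and 0.47 ± 0.09 in C6, with both lines clear of scramble. NDUFAB1, the mitochondrial acyl carrier protein, was called in neither line (0.24 ± 0.10 and 0.15 ± 0.10). Taking all modules by kind, 20 of 30 nuclear accessory subunits rose in C3 (66.7%, against 12.4% of all genes tested). In C6, 13 rose and 2 fell (43.3% and 6.67%, against 23.8% and 22.8%). Of the 7 nuclear core subunits, 4 rose in C3 (57.1%). In C6, 1 core subunit, NDUFV1, rose and 1, NDUFS1, fell (14.3% each). Summed, these core subunits had 671 and 701 CPM in C3 and 581 and 552 CPM in C6, against 589 and 563 CPM in scramble, so the C6 sums overlapped those of scramble. The difference between core and accessory subunits was not tested.

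Of the 8 NDUFAF assembly factors, the same 3 rose in both lines (37.5%, against 5.44% of all genes tested). NDUFAF3 (chromosome 3, 49020452 to 49023495), a partner of NDUFAF4 in the assembly of the Q module, had 14.6 and 13 CPM in C3 and 10.9 and 10.3 CPM in C6, against 8.17 and 8.15 CPM in scramble. The groups did not overlap, and it rose by 0.76 ± 0.13 in C3 and 0.37 ± 0.13 in C6. Its C6 call was lost under 7 of 15 alternatives and its C3 call under none, 0. NDUFAF3 overlaps DALRD3, which was called higher in C6 (0.57) and not in C3 (0.19). NDUFAF8 (chromosome 17, 81239311 to 81241310), a small partner of NDUFAF5, had 12.8 and 11.2 CPM in C3 and 12.1 and 10.6 CPM in C6, against 7.88 and 6.44 CPM in scramble. All 4 knockdown libraries were well above scramble, with a rise of 0.75 ± 0.15 in C3 and 0.67 ± 0.15 in C6. NDUFAF2 (chromosome 5, 60945205 to 61153026), the late factor that holds the place of NDUFA12, had 37.9 and 42.0 CPM in C3 and 51.2 and 43.4 CPM in C6, against 29.7 and 31.3 CPM in scramble. It rose by 0.39 ± 0.09 and 0.63 ± 0.09, but its neighbours stood at 0.44 in C6 and without them its C6 value was 0.19 with no call.

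NDUFAF7 (chromosome 2, 37231658 to 37271365), a methyltransferase of early assembly, had 32.6 and 33.0 CPM in C3 and 23.7 and 19.4 CPM in C6, against 31.4 and 28.1 CPM in scramble. Only the C6 libraries were low, with a log2 fold change of −0.47 ± 0.11 (adjusted p = 0.00213) and of 0.14 ± 0.10 in C3. Its neighbours did not share the fall in C6 (median −0.04), and it stayed at −0.42 with their shift removed. NDUFAF1, NDUFAF4, NDUFAF5 and NDUFAF6 were called in neither line, with values between −0.16 and 0.18. Among 12 assembly factors of complex I without an NDUF symbol, 2 rose in C3 and 3 in C6 (16.7% and 25.0%, near the 12.4% and 23.8% of all genes tested), and none, 0, fell in either. TMEM126A, a membrane protein, rose by 0.52 ± 0.10 in C6, and ACAD9, an acyl-CoA dehydrogenase relative, rose by 0.53 ± 0.09 in C3. The medians of these 12 were 0.12 in C3 and −0.05 in C6.

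Both NDUF symbols that do not belong to complex I were high in C6. NDUFA4 (chromosome 7, 10931943 to 10940153), now known as a subunit of cytochrome c oxidase, had 62.7 and 65.6 CPM in C3 and 95.9 and 79.5 CPM in C6, against 55.1 and 47.7 CPM in scramble. The groups formed a series without overlap, and NDUFA4 rose by 0.32 ± 0.09 in C3 and 0.77 ± 0.09 in C6. Its neighbours stood at 0.43 in C6; without them it was called in both lines at 0.35 and 0.34, and the difference of 0.45 ± 0.09 between the lines was gone. Its paralog NDUFA4L2 (chromosome 12, 57234903 to 57240762), a gene known to be induced by hypoxia, was low throughout with 4.39 and 4.38 CPM in C3 and 5.09 and 5.61 CPM in C6, against 3.71 and 3.65 CPM in scramble. The libraries of each group agreed closely, yet the standard error was wide: 0.54 ± 0.19 in C6 passed the test (adjusted p = 0.0302) and 0.25 ± 0.19 in C3 did not. The C6 call was lost under 6 of 15 alternatives. NDUFA4L2 overlaps SHMT2, which had 449 and 448 CPM in C6, against 612 and 587 CPM in scramble, and so moved the other way in C6.

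The 7 mitochondrially encoded genes are core subunits of the P module and far more abundant than the nuclear ones. Per kilobase of coding sequence their median level was 3552 CPM in C3, 3910 in C6 and 3247 in scramble, against 96.3, 86.9 and 73.1 CPM for the nuclear genes. The share of counts from these 7 genes ran from 2.237% to 2.295% in C3, from 2.064% to 2.211% in C6 and from 2.003% to 2.090% in scramble. ND1 (mitochondrial positions 3307 to 4262), the subunit at the ubiquinone channel, had 4509 and 4483 CPM in C3 and 3929 and 3992 CPM in C6, against 3802 and 3760 CPM in scramble. The groups did not overlap, but the rise passed the test in C3 only (0.25 ± 0.05 in C3, 0.07 ± 0.05 in C6), and C6 lay below C3 by −0.18 ± 0.05. ND2 (4470 to 5511), a proton-pumping subunit, had 3653 and 3749 CPM in C3 and 4044 and 4104 CPM in C6, against 3433 and 3333 CPM in scramble. Here the rise passed the test in C6 (0.27 ± 0.06) and not in C3 (0.13 ± 0.06), and the lines differed by 0.14 ± 0.06 (adjusted p = 0.051).

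ND4 (10760 to 12137), the most abundant of the 7 per kilobase, had 9790 and 9523 CPM in C3 and 8829 and 9580 CPM in C6, against 8351 and 8731 CPM in scramble. It rose by 0.18 ± 0.06 in C3 (adjusted p = 0.045) and was not called in C6 (0.11 ± 0.06). The C3 call of ND4 was lost under 11 of 14 alternatives, each library left out among them. ND4L (10470 to 10766), which shares its messenger with ND4, had 1578 and 1506 CPM in C3 and 1305 and 1674 CPM in C6, against 1169 and 1391 CPM in scramble. ND4L spread too widely for a call in either line (0.27 ± 0.13 and 0.22 ± 0.13). ND3 (10059 to 10404), a small subunit near the ubiquinone site, had 739 and 797 CPM in C3 and 859 and 794 CPM in C6, against 792 and 703 CPM in scramble. ND5 (12337 to 14148), the pump at the far end of the arm, had 2487 and 2232 CPM in C3 and 1937 and 2272 CPM in C6, against 1911 and 2184 CPM in scramble. The groups overlapped for ND3 and for C6 in ND5, and neither gene was called.

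ND6 (14149 to 14673), the lone protein gene read from the other strand of mitochondrial DNA, had the only C6 value below 0 among the 7, without a call. It had 222 and 216 CPM in C3 and 175 and 176 CPM in C6, against 186 and 194 CPM in scramble. The 3 groups did not overlap: ND6 rose by 0.21 ± 0.06 in C3 (adjusted p = 0.0157), stood at −0.12 ± 0.06 in C6 (adjusted p = 0.111), and lay lower in C6 than in C3 by −0.32 ± 0.06 (adjusted p = 0.00026). The kit marks strand, but the sources used here do not say whether the counting used it, and without it reads of the opposite strand cannot be told apart. The libraries were poly(A) libraries, and the part of this selection in the level of ND6 was not tested. Of the 6 mitochondrially encoded genes of complexes III to V, 3 rose in C3 and all 6 in C6. Over all genes tested, 12.4% rose in C3 and 23.8% in C6. Among the 6, COX3 of complex IV rose by 0.23 ± 0.06 in C3 and 0.48 ± 0.06 in C6. ATP8 of complex V rose by 0.28 ± 0.06 and 0.37 ± 0.06. In C6 the median was 0.11 for the 7 genes of complex I and 0.36 for these 6 from the same genome; in C3 it was 0.20 for the 7 and 0.17 for the 6. The difference between these sets was not tested.

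**Figure D3:**
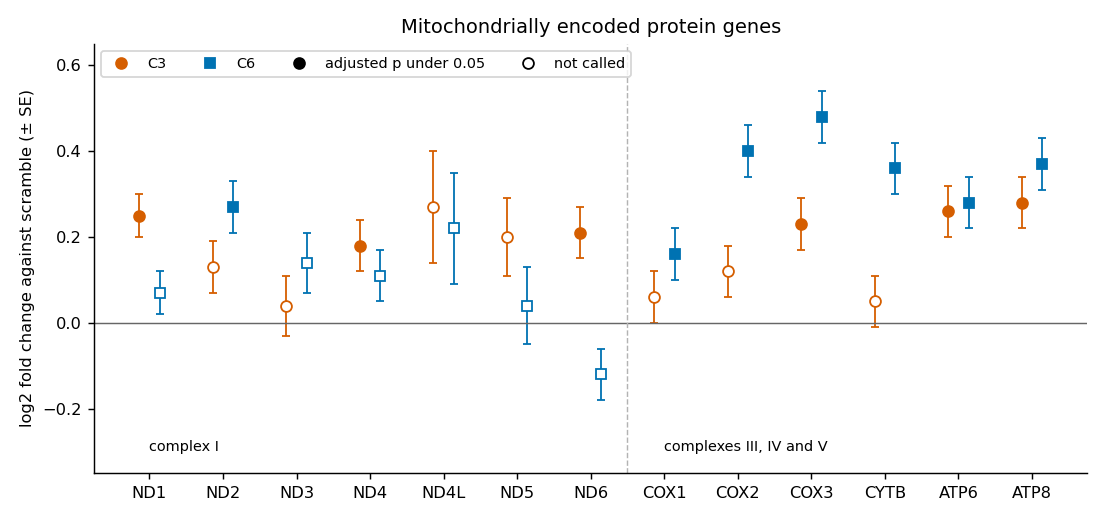
Log2 fold change against scramble with standard errors for the 7 mitochondrially encoded genes of complex I, left, and the 6 of complexes III to V, right; filled symbols passed an adjusted p of 0.05. In C6 (squares) all 6 genes on the right are filled, and on the left ND2 alone is; ND6 is the gene with a C6 value below 0.

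Between the lines, 5 of the 54 genes were higher in C6 than in C3 and 18 were lower, against 25.1% and 24.1% of all genes tested (49.2% in either direction). Core subunits among the lower ones included NDUFS1, NDUFS3, NDUFS7, NDUFS8, ND1 and ND6, beside 9 of the 30 nuclear accessory subunits. The assembly factors NDUFAF3 and NDUFAF7 were also lower, by −0.39 and −0.61. The 5 that were higher were NDUFA4, NDUFS4, NDUFB2, NDUFAF2 and NDUFA12, and the first 4 of them lie among neighbours that were high in C6. With the shift of neighbours removed, 2 nuclear genes were higher in C6 than in C3 and 15 were lower (4.26% and 31.9%, against 23.7% and 22.3% of all genes). With each library left out in turn, 11 of the 18 lower calls held every time, and of the 5 higher ones that of NDUFA4 alone. Without the first C3 library 1 gene was higher, without the second C3 library 3, and without the first C6 library 1.

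Position on the chromosome therefore goes with part of the pattern. In C6, 6 of the 47 nuclear genes had neighbours with a median above 0.3 on the log2 scale, namely NDUFB2, NDUFS4, NDUFAF2, NDUFA4, NDUFS6 and NDUFA5 on chromosomes 5 and 7, and all 6 rose. A further 3 on chromosome 2 had a neighbour median below −0.3, NDUFS1, NDUFB3 and NDUFA10, and 2 of these fell. Among the 38 genes whose neighbours lay within 0.3, 22 rose in C3 (57.9%, against 12.4% of all genes tested). Of these 38, 13 rose and 2 fell in C6 (34.2% and 5.26%, against 23.8% and 22.8%). In C3 the neighbour median exceeded 0.3 for NDUFB2 alone. With the neighbour shift removed across all genes, 28 of the 47 rose in C3 (59.6%, against 11.3% of all genes). In C6, 17 rose and 3 fell (36.2% and 6.38%, against 21.2% and 19.6%), and 12 rose in both lines (25.5%, against 4.24%). This removal left 13 of the 19 nuclear calls of a rise in C6 in place. Copy number was not measured, so its part in these shifts was not tested.

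**Figure D4:**
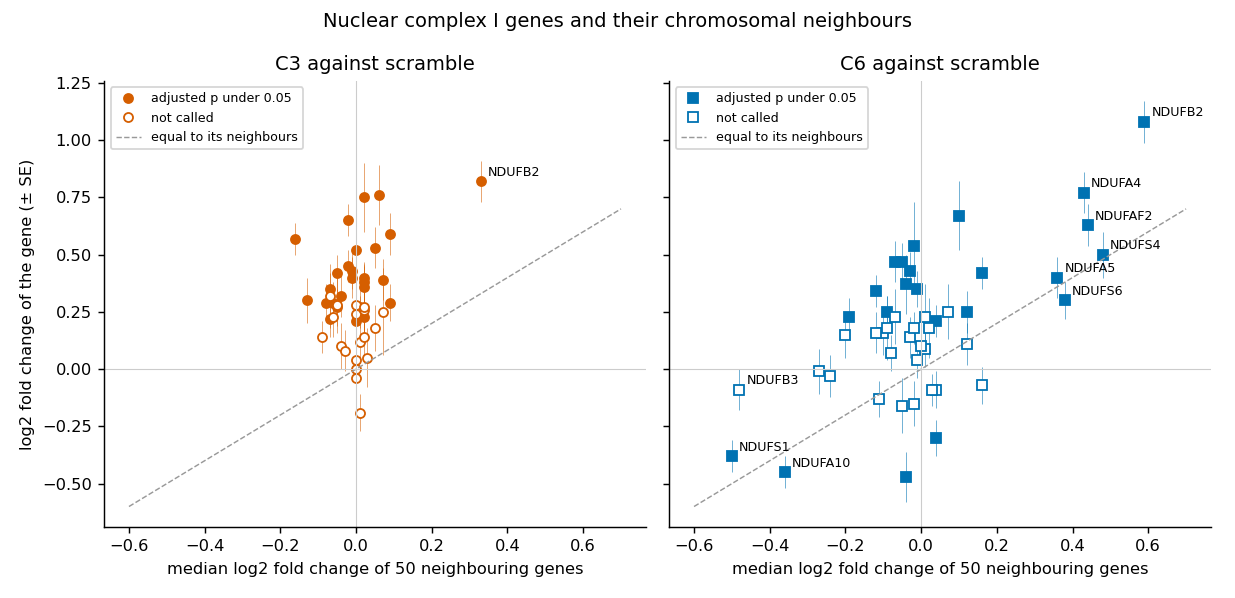
Log2 fold change of each nuclear gene (y axis, with standard error) against the median of its 50 neighbours on the chromosome (x axis), for C3 and C6. In C3 the neighbour medians stay within 0.3 except for NDUFB2 at 0.33, and in C6 labelled genes reach neighbour medians from −0.50 (NDUFS1) to 0.59 (NDUFB2).

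Many complex I genes are short, and short genes as a whole stood higher in the knockdown lines. The 22 nuclear complex I genes with a coding length of up to 500 bases had a median log2 fold change of 0.29 in C3 and 0.23 in C6, and the 17 of over 500 to 1000 bases 0.29 and 0.16. The 8 over 1000 bases had 0.14 in C3 and −0.19 in C6, and all 4 genes that fell in C6 were among them. Over all genes tested, those of up to 500 bases had medians of 0.06 in C3 and 0.17 in C6, and those over 1000 bases −0.01 and −0.05. Of the short genes as a whole, 36.7% rose in C6, against 23.8% of all genes tested. With the trend over coding length removed, 20 of the 54 genes rose in C3, 12 rose and 8 fell in C6, and 8 rose in both lines. The share that rose was then 37.0% in C3, against 11.5% of all genes tested, and 22.2% in C6, against 22.6%, so in C6 it no longer exceeded that of all genes. The share that fell in C6 was 14.8%, against 22.1%, and the share that rose in both lines 14.8%, against 4.86%. NDUFC2, NDUFB3, NDUFB10 and ND6 were the 4 that then joined the falls in C6, at −0.30, −0.29, −0.22 and −0.24. No RNA integrity values were at hand, and their part was not tested.

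**Figure D5:**
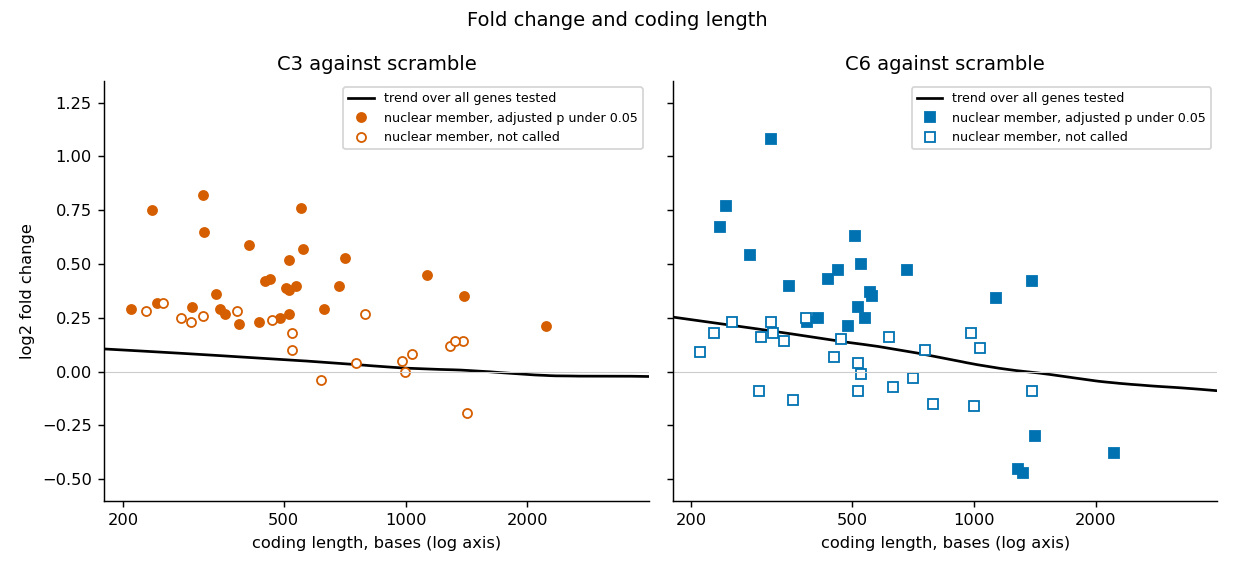
Log2 fold change of each nuclear gene against its coding length in bases (log axis) for C3 and C6, with the trend over all genes tested as a black line. The 22 genes of up to 500 bases have medians of 0.29 in C3 and 0.23 in C6, and the 4 genes that fell are all longer than 1000 bases.

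Of 38 nuclear subunits of complexes II to V, 26 rose in C3 (68.4%, against 12.4% of all genes tested) and none, 0, fell (against 11.9%). In C6, 17 rose (44.7%, against 23.8% of all genes tested) and 8 fell (21.1%, against 22.8%). The medians of the 38 were 0.30 in C3 and 0.15 in C6. Whether complex I differed from these subunits was not tested. ATP5F1E, ATP5MC1 and ATP5MF, subunits of ATP synthase, rose in both lines, by 0.74 and 0.60, 0.58 and 0.69, and 0.34 and 0.68 in C3 and C6. Of 21 genes for mitochondrial transcription and messenger stability, 3 rose in C3 (14.3%), and 4 rose and 2 fell in C6 (19.0% and 9.52%), so the shares that rose were near or below those of all genes tested. FASTK, of a family of mitochondrial RNA-binding proteins, was the 1 that rose in both, by 0.35 ± 0.08 and 1.04 ± 0.08. TFAM, the packaging and transcription factor of mitochondrial DNA, rose in C3 by 0.19 and stood at −0.01 in C6; it is named here after its values were seen.

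Of 8 nuclear regulators of respiratory genes tested, 2 rose in C3 (25.0%, against 12.4% of all genes tested). In C6, 1 rose and 3 fell (12.5% and 37.5%, against 23.8% and 22.8%). PPARGC1A, the coactivator of mitochondrial biogenesis, had 3.16 and 1.60 CPM in C3 and 1.33 and 0.647 CPM in C6, against 3.71 and 5.96 CPM in scramble. At these low levels it fell by 2.29 in C6 on the log2 scale (SE 0.41, adjusted p = 0.00069) and had −1.01 ± 0.37 in C3 without a call. GABPA, the DNA-binding subunit of the factor GABP, fell by 0.29 in C6, and its partner GABPB1 rose by 0.31 in C3. PPARGC1B fell by 1.22 in C6, ESRRA rose by 0.24 in C6, and YY1 rose by 0.20 in C3; these 3 are named after their values were seen. NRF1 was called in neither line (0.24 ± 0.11 and −0.06 ± 0.11), and ESRRG had no counts in any library.

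RefSeq places another gene over 22 of the 54 genes, and 28 of them, 21 nuclear and all 7 mitochondrially encoded, have pseudogenes under their own symbol. Reads that such copies share could be counted for either, so these values are less certain. Among the genes given by library above, NDUFB2, NDUFS1, NDUFA10, NDUFAF3, NDUFAF7 and NDUFA4L2 overlap another gene, and ND4 and ND4L overlap each other. NDUFAF7 overlaps PRKD3, which was called higher in C3 (0.22) and stood at 0.17 in C6 without a call, so it did not share the fall of NDUFAF7.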

How the data were processed

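Stranded poly(A) libraries were sequenced as paired ends, per the labels' protocols. The deposited table holds whole-number counts per gene for 6 libraries, with no scaling applied, per the file headers. The submitters' processing notes name Trimmomatic 0.38, HISAT2 2.1.0, StringTie 2.1.3b, DESeq2 and build hg38, with no order; the sources used here do not say how reads were assigned to genes, and the whole numbers may be estimates. Libraries were grouped by title. One member enters all fits and counts but is not reported here by name.

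Counts were fitted with edgeR 4.0.16 in R 4.3.3 (TMM, filterByExpr, robust quasi-likelihood test, 3 groups, 3 residual degrees of freedom). Contrasts were C3 and C6 each against scramble, their mean against scramble, and C6 against C3. The Benjamini-Hochberg adjustment covered 13299 genes, with a threshold of 0.05. CPM values use TMM-scaled library sizes; ± is the standard error of a log2 fold change. The fit was tested on simulated data. Positions came from RefSeq GRCh38.p14, in which 19506 genes of the table were matched, and coding lengths from GENCODE, in place of the RefSeq proteins planned. Neighbours are the 50 nearest genes tested on the chromosome; their running median over 51 genes, or a loess trend over coding length (span 0.5), was entered as an offset.

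The members, the lists and the rule for naming genes were chosen with earlier results of these data known. Values by library were given for DKC1, the mitochondrially encoded genes, members called alike in both lines (the 12 most significant in the mean comparison), those called with opposite signs, the 6 most significant in each direction between lines, the 4 largest changes in each direction per line, NDUFA4 and NDUFA4L2. Other lists named up to 3 members by that p.

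Replicate numbers of the titles did not pair the libraries. Alternatives were RLE and upper-quartile scaling, other low-count filters, DESeq2 1.42.0, a replicate block, each library left out, pooled knockdown libraries, mitochondrial counts left out of library sizes, and both offsets.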

Additional observations from a re-analysis of the deposited data

Results flagged for a closer look

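The log2 fold change against scramble differed between C6 and C3 by the test of the difference for 23 of the 54 genes (quasi-likelihood test of edgeR, Benjamini-Hochberg adjusted), where 49.2% of all genes tested did. Of these, 22 are given here, with values as C6 minus C3 on the log2 scale. Lower in C6 were NDUFB10 by −0.61, NDUFAF7 by −0.61, NDUFS1 by −0.58, NDUFA10 by −0.57, NDUFS7 by −0.56, NDUFS5 by −0.47, NDUFS3 by −0.42, NDUFC2 by −0.40 and NDUFAF3 by −0.39. NDUFS8 was lower by −0.36, NDUFA13 by −0.35, NDUFB7 by −0.34, NDUFB3 by −0.33, ND6 by −0.32, NDUFA8 by −0.23, NDUFB8 by −0.22 and ND1 by −0.18. Higher in C6 were NDUFA12 by 0.20, NDUFAF2 by 0.24, NDUFB2 by 0.26, NDUFS4 by 0.32 and NDUFA4 by 0.45. Both libraries of a line lay on the same side of both libraries of the other in each of the 23 genes. The 23 were picked by the difference between these same libraries, so this adds no separate support.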

How the results depend on the processing

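With the neighbour shift removed, signs turned in C6 against scramble for NDUFAF4 (0.26), NDUFB3 (0.38), NDUFS1 (0.11) and NDUFS6 (−0.08), in the mean comparison for NDUFA10 (0.01), and in C6 against C3 for NDUFA4 (−0.0), NDUFA5 (−0.34), NDUFAF2 (−0.13), NDUFB2 (−0.01), NDUFB3 (0.09) and NDUFS4 (−0.10). The mean comparison had 26 genes higher and 2 lower. With the knockdown libraries as 1 group it had 1 and 0, and DKC1 had −1.56 (adjusted p = 0.124), since the difference between the lines then counts as spread. With the coding-length trend removed, 20 genes were higher in C3 (31 without this step), 12 higher and 8 lower in C6 (20 and 4), 17 higher in the mean comparison, 1 higher and 22 lower in C6 against C3 (5 and 18) and 8 higher in both lines (17). Upper-quartile scaling left 3 higher in C6 against C3 and 11 higher in both lines, and moved the median of all genes by −0.036 in C3 and −0.061 in C6; DESeq2 left 11 higher in both lines and 1 lower in the mean. With the neighbour shift removed, 2 were higher in C6 against C3 and 1 lower in the mean. With each library left out in turn, the genes higher were 15 to 32 in C3, 12 to 20 in C6, 15 to 28 in the mean comparison, 1 to 5 in C6 against C3 and 6 to 16 in both lines, and those lower in the mean were 0 to 1; in the mean comparison, 15 were higher without the second scramble library and none, 0, lower without the first. Other values are given by library with the results above. A library left alone in its group was assumed to vary like the other groups. Libraries with the same replicate number did not deviate together (correlations of −0.047 for C3 with scramble, 0.064 for C6 with scramble and 0.025 for C6 with C3), so the numbers do not pair them. With the replicate block, 3 were higher in C6 against C3, 1 was lower in the mean, 30 were higher in C3, 20 in C6 and 15 in both lines. Of the other values of single genes, 2939 kept their side of the threshold, 257 lost a call and 59 gained one. With 2 libraries per group, several differences of more than 2 standard errors were not called, such as NDUFS3 (0.27 ± 0.10) and NDUFB3 (0.23 ± 0.09) in C3.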
